A study of Homo sapiens with 3 samples.

Results

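The suprabasal differentiation keratins are 8 keratin genes, KRT1, KRT10, KRT4, KRT13, KRT23, KRT24, KRT78 and KRT80, taken by their Ensembl identifiers from the 58037 genes of a count table of RWPE1 cells. RWPE1 is an immortalized line of normal human prostate epithelium, and the study changed in it the olfactomedin 4 gene, OLFM4, which encodes a secreted glycoprotein. Bulk total RNA depleted of ribosomal RNA was sequenced in 3 libraries, 1 each labelled OLFM4-wild type, OLFM4-Knock out and OLFM4-active, named OLFM4-wild, OLFM4-knockout and OLFM4-active below. By the study's methods the RNA came from cells sorted for GFP. The reporter cells expressed GFP and came from lines selected with puromycin after transfection with CRISPR/Cas9 plasmids for OLFM4. These were double nickase plasmids for the knockout and activation plasmids for the other reporter cells. The methods do not say how the library labelled OLFM4-active differs from OLFM4-wild in its plasmids, and the study calls the OLFM4-wild and OLFM4-knockout reporter cells clones without saying how many clones each library holds. All 3 libraries come from RWPE1. In its RNA comparison the study calls the OLFM4-knockout cells GFP reporter cells and names the OLFM4-wild cells without that term. Neither the labels nor the methods state the transfection, the selection and the sort for each library separately.

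Keratins are the proteins of the intermediate filaments of epithelial cells, and each filament is built from a type I and a type II chain in equal amounts. Basal cells of a layered epithelium make KRT5 and KRT14. A cell that leaves the basal layer turns to suprabasal pairs: KRT1 (type II) with KRT10 (type I) in epidermis, and KRT4 (type II) with KRT13 (type I) in moist, non-cornified linings such as the oesophagus. In the prostate, KRT13 marks the hillock cells of the urethra and proximal ducts, a population to which the study relates some OLFM4-expressing cells. KRT78 and KRT80 are further type II keratins of differentiating epithelia, and KRT23 and KRT24 are type I keratins whose filament partners are less well known.

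The type II members lie in the keratin cluster on chromosome 12 and the type I members in the one on chromosome 17, all on the minus strand (GRCh38, GENCODE version 44). KRT1 (ENSG00000167768) spans chr12:52674736-52680407, KRT4 (ENSG00000170477) chr12:52806549-52814116, KRT78 (ENSG00000170423) chr12:52837804-52849092 and KRT80 (ENSG00000167767) chr12:52168996-52192014. KRT10 (ENSG00000186395) spans chr17:40818117-40822614, KRT13 (ENSG00000171401) chr17:41500981-41505705, KRT23 (ENSG00000108244) chr17:40922700-40937646 and KRT24 (ENSG00000167916) chr17:40697991-40703752. No run of 75 bases, the read length, in the annotated transcripts of the 8 genes occurs in the same sense in the transcripts of another gene. The annotation names 0 pseudogenes after the 8 genes. So no annotated copy identical over a read was found. Copies that differ by some bases, and pseudogenes without such a name, were not searched for.

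RefSeq promoter sequences (GRCh38.p14) were at hand for 3 of the 8 genes, and they are shown because these genes stand far apart in level: KRT10 is the most abundant member, KRT24 is barely detected, and KRT4 is the member that was most above OLFM4-wild in the OLFM4-knockout library. Each line gives the 250 bases before the start of the gene, 5′ to 3′ on the minus strand, with TATAAA, the core of a TATA box, in capitals. The windows are chr17:40822615-40822864 for KRT10, chr17:40703753-40704002 for KRT24 and chr12:52814117-52814366 for KRT4.
KRT10: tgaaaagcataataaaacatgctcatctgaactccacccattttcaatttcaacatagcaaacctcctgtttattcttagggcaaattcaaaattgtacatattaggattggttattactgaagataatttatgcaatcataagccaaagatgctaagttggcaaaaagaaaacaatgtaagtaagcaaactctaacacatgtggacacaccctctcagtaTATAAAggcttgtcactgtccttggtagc
KRT24: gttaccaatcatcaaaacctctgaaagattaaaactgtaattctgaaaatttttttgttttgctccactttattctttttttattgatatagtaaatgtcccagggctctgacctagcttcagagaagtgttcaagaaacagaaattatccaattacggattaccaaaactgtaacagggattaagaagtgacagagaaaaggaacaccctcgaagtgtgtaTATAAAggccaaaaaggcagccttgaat
KRT4: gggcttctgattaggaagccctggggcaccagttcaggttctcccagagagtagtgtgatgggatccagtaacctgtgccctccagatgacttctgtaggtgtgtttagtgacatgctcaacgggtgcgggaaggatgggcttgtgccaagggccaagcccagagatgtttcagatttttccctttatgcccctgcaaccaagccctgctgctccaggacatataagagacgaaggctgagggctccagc
TATAAA begins 29 bases before the start of KRT10 and 28 bases before that of KRT24. These exact letters are not in the KRT4 window, which reads tataag close to the start of the gene. Variants of the TATA box were not searched for, so the KRT4 window is not shown to lack one. TATAAA is in 10.7% of the 35116 RefSeq promoters in the same window on either strand. The other motifs searched on both strands were TGAGTCA (AP-1, in 4.2% of promoters), AACCGGTT (grainyhead, 0.117%), TGGGAA (the RBPJ core, 20.8%), CACGTG (E-box, 6.34%) and TTGCGCAA (C/EBP, 0.131%), and none of these letters is in the 3 windows. So the most and the least abundant member have TATAAA at nearly the same distance from their start.

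The counts summed to 16309906 in OLFM4-wild, 58837147 in OLFM4-knockout and 23224216 in the library labelled OLFM4-active. Levels are given as CPM, counts scaled to a common library size with TMM factors, and differences as log2 fold changes. Brackets hold 95% Clopper-Pearson intervals on the read counts, which cover counting error only. With 1 library per condition there was no test and no spread between replicates, and each statement compares libraries, not conditions. OLFM4 itself had 214 counts (11.8 CPM) in OLFM4-wild, 131 (2.55 CPM) in OLFM4-knockout and 16 (0.670 CPM) in the library labelled OLFM4-active, the lowest of the 3, which goes against that label. TMM in place of library totals raised every log2 fold change by 0.35 in OLFM4-knockout against OLFM4-wild, by 0.11 for the library labelled OLFM4-active relative to OLFM4-wild, and by 0.24 in OLFM4-knockout relative to the library labelled OLFM4-active. Values with totals are given for the members where they cross 2-fold or 0.

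The 8 genes had no common direction. In OLFM4-knockout the mucosal pair KRT4 and KRT13 was higher than in OLFM4-wild by 3.77-fold and 2.46-fold, whereas the epidermal KRT1 was 5.77-fold lower and its partner KRT10 was at nearly the same level. In the library labelled OLFM4-active, all 7 members with a mean level of 1 CPM or more were lower than in OLFM4-wild, and KRT78 was lower there by 50.4-fold. KRT24, with 7 counts over the 3 libraries, was below that level of 1 CPM and was left out of the counts of members. Both comparisons use the same OLFM4-wild library.

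**Figure D1:**
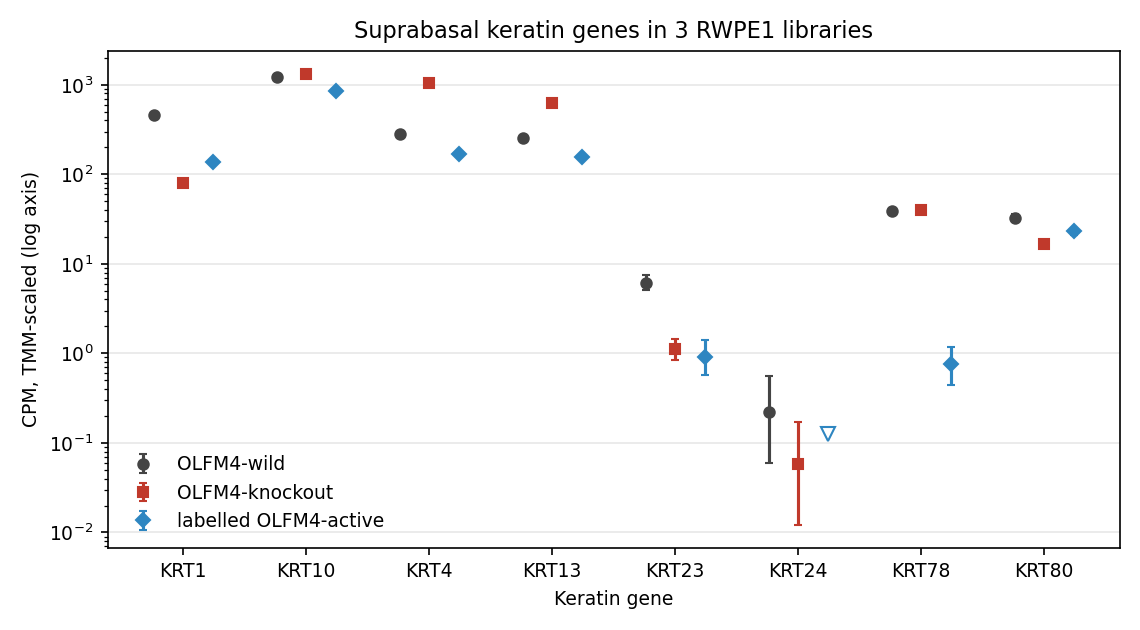
Level of each of the 8 suprabasal keratin genes (x axis) in the 3 libraries, in CPM over TMM-scaled library sizes on a log axis, with 95% counting intervals that are mostly smaller than the symbols. The open triangle is the floor of 3 counts for KRT24, which had 0 counts in the library labelled OLFM4-active. KRT4 and KRT13 are highest in OLFM4-knockout, KRT1 is lowest there, and KRT78 is at 39.0 and 39.8 CPM in 2 libraries and at 0.753 CPM in the one labelled OLFM4-active.

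KRT1, the type II keratin of the spinous layer of epidermis, had 8408 counts in OLFM4-wild, 4116 in OLFM4-knockout and 3281 in the library labelled OLFM4-active. These are 463 CPM (453 to 473), 80.2 CPM (77.8 to 82.7) and 137 CPM (133 to 142). By CPM OLFM4-wild was thus the highest and OLFM4-knockout the lowest. The log2 fold change was -2.53 (-2.58 to -2.47) in OLFM4-knockout and -1.75 (-1.81 to -1.69) in the library labelled OLFM4-active, each against OLFM4-wild. KRT1 was 1.71-fold lower in OLFM4-knockout than in the library labelled OLFM4-active, a log2 fold change of -0.78 (-0.84 to -0.71), or -1.01 with library totals, just past 2-fold.

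KRT10, the type I partner of KRT1, was the most abundant member, with 22107, 68319 and 20117 counts in the same order. The levels were 1217 CPM (1201 to 1233) in OLFM4-wild, 1331 CPM (1321 to 1341) in OLFM4-knockout and 842 CPM (830 to 854) in the library labelled OLFM4-active. The level of KRT10 in OLFM4-knockout against OLFM4-wild has no direction that holds across scalings, since the log2 fold change was 0.13 (0.11 to 0.15) with TMM and -0.22 with totals. KRT10 was lower in the library labelled OLFM4-active by 1.44-fold, a log2 fold change of -0.53 (-0.56 to -0.50). KRT10-AS1, a long non-coding RNA on the other strand that shares 61 exon bases with KRT10, had 1.35, 2.83 and 1.78 counts per 100 counts of KRT10 in the same order, few beside the host gene.

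KRT4, the type II keratin of mucosal suprabasal cells, had 5073 counts in OLFM4-wild, 54056 in OLFM4-knockout and 3982 in the library labelled OLFM4-active. The levels were 279 CPM (272 to 287), 1053 CPM (1044 to 1062) and 167 CPM (162 to 172). OLFM4-knockout stood far above both other libraries, with a log2 fold change of 1.92 (1.87 to 1.96) against OLFM4-wild, or 1.56 with totals, and of 2.66 (2.61 to 2.71) against the library labelled OLFM4-active. The library labelled OLFM4-active was below OLFM4-wild by 1.67-fold, a log2 fold change of -0.74 (-0.80 to -0.68).

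KRT13, the type I partner of KRT4 and the hillock marker, had 4633, 32254 and 3717 counts. In CPM this was 255 (248 to 262) in OLFM4-wild, 628 (621 to 635) in OLFM4-knockout and 156 (151 to 161) in the library labelled OLFM4-active, the same order as KRT4. The log2 fold change of OLFM4-knockout relative to the library labelled OLFM4-active was 2.01 (1.97 to 2.06), or 4.04-fold. Against OLFM4-wild it was 1.30 (1.26 to 1.35), and with library totals 0.95, just under 2-fold. The library labelled OLFM4-active had a log2 fold change of -0.71 (-0.78 to -0.65), close to that of KRT4. The lncRNA ENSG00000229732 lies opposite KRT13 with all 476 of its exon bases inside exons of KRT13, and it had 29.7 (27.9 to 31.5), 28.3 (27.6 to 29.0) and 29.3 (27.3 to 31.3) counts per 100 counts of KRT13. That ratio differed between the libraries by less than the counting intervals. Whether these counts are reads of KRT13 assigned to the other strand was not tested.

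KRT78, a type II keratin of differentiating layered epithelia, had 709 counts in OLFM4-wild, 2042 in OLFM4-knockout and 18 in the library labelled OLFM4-active. OLFM4-wild at 39.0 CPM (36.2 to 42.0) and OLFM4-knockout at 39.8 CPM (38.1 to 41.5) had overlapping intervals with TMM, with a log2 fold change of 0.03 (-0.10 to 0.15), and -0.33 with totals. The library labelled OLFM4-active had 0.753 CPM (0.446 to 1.19), a log2 fold change of -5.66 (-6.46 to -5.02) against OLFM4-wild. This is the widest difference of any member, and it sets 1 library apart from the 2 others. OLFM4-knockout was 51.4-fold above the library labelled OLFM4-active.

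KRT80, a type II keratin of differentiating cells that lies at the outer end of the cluster, away from the other type II members, had 597, 857 and 551 counts. The levels of 32.9 CPM (30.3 to 35.6), 16.7 CPM (15.6 to 17.9) and 23.1 CPM (21.2 to 25.1) put OLFM4-wild highest and OLFM4-knockout lowest, as for KRT1, over a narrower range. The log2 fold change of OLFM4-knockout against OLFM4-wild was -0.98 (-1.13 to -0.82), just short of 2-fold, and -1.33 with totals. The library labelled OLFM4-active stood between, at -0.51 (-0.68 to -0.34). LINC00592, a lncRNA on the other strand that shares 0 exon bases with KRT80, had 2, 2 and 4 counts.

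KRT23, a type I keratin, was rare, with 112 counts in OLFM4-wild, 57 in OLFM4-knockout and 22 in the library labelled OLFM4-active. OLFM4-wild had 6.16 CPM (5.08 to 7.42) against 1.11 CPM (0.841 to 1.44) and 0.921 CPM (0.577 to 1.39) in the other libraries. Both were lower than OLFM4-wild, by 5.53-fold (log2 fold change -2.47, -2.96 to -2.00) and 6.57-fold (-2.72, -3.47 to -2.07), and their difference from each other, 0.25 (-0.46 to 1.05), was not detectable at this depth. The lncRNA ENSG00000234477, on the other strand with 186 shared exon bases, had 23, 15 and 6 counts, or 20.5, 26.3 and 27.3 per 100 counts of KRT23.

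KRT24, a type I keratin, had 4 counts in OLFM4-wild, 3 in OLFM4-knockout and 0 in the library labelled OLFM4-active, or 0.220 CPM (0.0600 to 0.564), 0.0584 CPM (0.0121 to 0.171) and 0. The count of 0 has an upper limit of 0.154 CPM, and the floor of 3 counts there is 0.126 CPM. Both lie inside the interval of OLFM4-wild. The log2 fold change of OLFM4-knockout against OLFM4-wild had an interval from -4.68 to 0.65, and for the library labelled OLFM4-active the upper limit was 0.20, so no difference of KRT24 from OLFM4-wild was detectable at this depth.

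Of the 7 members with a mean level of 1 CPM or more, 2 were more than 2-fold higher in OLFM4-knockout than in OLFM4-wild (KRT4 and KRT13) and 2 were more than 2-fold lower (KRT1 and KRT23). Among all 16600 genes at that level, 5.77% were higher and 7.56% lower by that much, or 957 and 1255 genes. With library totals 1 member (KRT4) was higher and 3 (KRT1, KRT23 and KRT80) lower, beside 362 and 2350 genes. In the library labelled OLFM4-active relative to OLFM4-wild, 0 members were more than 2-fold higher, against 3.78% of all genes, and 3 were lower (KRT1, KRT23 and KRT78), against 6.73%. In OLFM4-knockout relative to the library labelled OLFM4-active, 3 members were higher (KRT4, KRT13 and KRT78), against 2.95% of all genes, and 0 were lower, against 3.39%. There, 490 genes were higher and 563 lower, and with totals 215 and 1160, with KRT1 among the lower ones. The counts of members are small, and 7 genes of 1 family are not 7 independent observations.

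The median log2 fold change of the 7 members was 0.03 in OLFM4-knockout against OLFM4-wild, where all 16600 genes had a median of 0.10. With totals these medians were -0.33 and -0.26, and 2 members were above 0 in place of 4. The members' median in the library labelled OLFM4-active relative to OLFM4-wild was -0.74 and that of all genes 0.05, and 0 members were above 0 with either scaling. In OLFM4-knockout relative to the library labelled OLFM4-active the medians were 0.66 and 0.08, with 5 of 7 members above 0 with either scaling. The members therefore lay on both sides of the middle of all genes in OLFM4-knockout and on 1 side of it in the library labelled OLFM4-active.

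**Figure D2:**
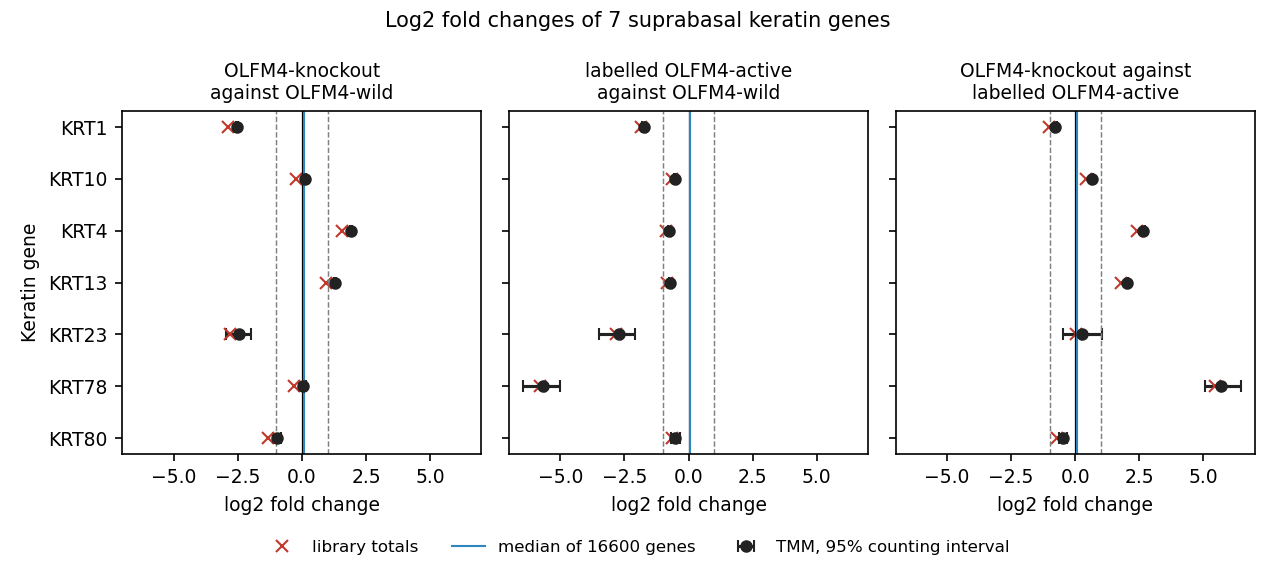
Log2 fold change (x axis) of the 7 members with a mean level of 1 CPM or more (y axis) in the 3 comparisons, with TMM (circles, 95% counting intervals) and with library totals (crosses). The blue line is the median of 16600 genes and dashed lines mark 2-fold. KRT4 and KRT13 lie right of 0 and KRT1 and KRT23 left of it in OLFM4-knockout against OLFM4-wild, and all 7 lie left of 0 in the library labelled OLFM4-active.

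Levels of different genes are compared here as CPM per kilobase of exon. In OLFM4-wild the order was KRT10 at 562, KRT1 at 186, KRT4 at 97.0, KRT13 at 87.5, KRT78 at 11.97, KRT80 at 7.53, KRT23 at 2.12 and KRT24 at 0.117. In OLFM4-knockout KRT10 stayed first at 615, and KRT4 at 366 and KRT13 at 216 stood before KRT1 at 32.2. In the library labelled OLFM4-active KRT4 at 57.9, KRT1 at 55.2 and KRT13 at 53.4 were close to each other behind KRT10 at 389. At the low end KRT78 was at 12.2 in OLFM4-knockout and at 0.231 in the library labelled OLFM4-active, where it was behind KRT80 at 5.28 and KRT23 at 0.316. KRT10 was thus first in each library and the place of KRT1 changed most among the abundant members.

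A ratio of 2 genes' counts within a library does not depend on how libraries are scaled. Since KRT1 and KRT10 form 1 filament and KRT4 and KRT13 another, these ratios compare partners. There were 38.0 counts of KRT1 (37.1 to 39.0) per 100 of KRT10 in OLFM4-wild, 6.02 (5.84 to 6.22) in OLFM4-knockout and 16.3 (15.7 to 16.9) in the library labelled OLFM4-active. The epidermal pair was therefore uneven to a different degree in each library, and the ratio was 6.31-fold lower in OLFM4-knockout than in OLFM4-wild. KRT4 had 109 counts (105 to 114) per 100 of KRT13 in OLFM4-wild, 168 (165 to 170) in OLFM4-knockout and 107 (102 to 112) in the library labelled OLFM4-active. The ratio of the mucosal partners differed by up to 1.56-fold between the 3 libraries. It was 1.53-fold higher in OLFM4-knockout than in OLFM4-wild, with intervals that did not overlap. OLFM4-wild and the library labelled OLFM4-active had overlapping intervals.

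Across the pairs, KRT4 had 60.3 counts (58.3 to 62.5) per 100 of KRT1 in OLFM4-wild, 1313 (1272 to 1356) in OLFM4-knockout and 121 (116 to 127) in the library labelled OLFM4-active. OLFM4-wild held fewer counts of KRT4 than of KRT1 and OLFM4-knockout many more, a ratio 21.8-fold higher in OLFM4-knockout. Among the type I partners, KRT13 had 21.0, 47.2 and 18.5 counts per 100 of KRT10 in the same order, a ratio 2.25-fold higher in OLFM4-knockout than in OLFM4-wild. The shift between the epidermal and the mucosal member was wider for the type II genes than for the type I genes.

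**Figure D3:**
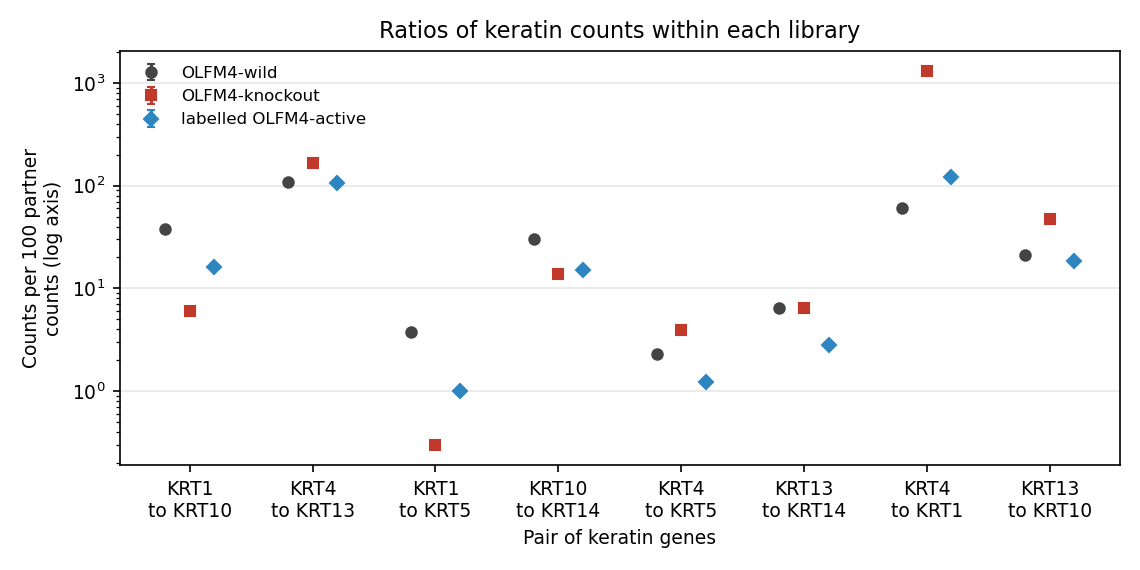
Counts of the first keratin gene per 100 counts of the second (y axis, log scale) for 8 pairs (x axis) in the 3 libraries, with 95% counting intervals smaller than the symbols. KRT1 to KRT10 is lowest and KRT4 to KRT1 highest in OLFM4-knockout, and KRT4 to KRT13 stays between 107 and 168.

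Set against the basal keratin of the same type, most members made up less in OLFM4-knockout and in the library labelled OLFM4-active than in OLFM4-wild. KRT5, the type II basal keratin, had 222265, 1389973 and 326988 counts in OLFM4-wild, OLFM4-knockout and the library labelled OLFM4-active, and KRT14, the type I basal keratin, had 72793, 496201 and 132417. Per 100 counts of KRT5 there were 3.78, 0.296 and 1.003 counts of KRT1, 2.28, 3.89 and 1.22 of KRT4, 0.319, 0.147 and 0.00550 of KRT78, and 0.269, 0.0617 and 0.169 of KRT80. KRT4 was the only type II member whose ratio to KRT5 was higher in OLFM4-knockout than in OLFM4-wild, by 1.70-fold. Per 100 counts of KRT14 there were 30.4, 13.8 and 15.2 of KRT10, 6.36, 6.50 and 2.81 of KRT13, and 0.154, 0.0115 and 0.0166 of KRT23. The ratio of KRT13 to KRT14 in OLFM4-knockout, 6.50 (6.43 to 6.57), overlapped that in OLFM4-wild, 6.36 (6.18 to 6.56), so KRT13 stood higher in OLFM4-knockout by CPM but not beside KRT14. KRT14 has near-identical copies, and reads that fit several places were not counted.

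Together the 8 genes held 7.50% (7.43 to 7.57) of the counts of all 55 protein-coding keratin genes in OLFM4-wild, 4.96% (4.94 to 4.99) in OLFM4-knockout and 4.08% (4.03 to 4.12) in the library labelled OLFM4-active. Their summed level was 2292, 3150 and 1326 CPM. The sum was thus highest in OLFM4-knockout while the share was not, since all keratins together made up 3.41%, 5.54% and 3.35% of the counts of the 3 libraries. The basal keratins KRT5, KRT14 and KRT15 held 53.5%, 58.4% and 59.4% of keratin counts, and the activation keratins, made in wounded or cultured epithelium (KRT6A, KRT6B, KRT6C, KRT16, KRT17 and KRT75), 34.7%, 34.2% and 33.5%. The simple epithelial keratins held 4.16%, 2.29% and 2.98%, and the other differentiation keratins 0.0572%, 0.0455% and 0.0215%.

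Within the counts of the 8 genes, KRT10 held 53.1%, 42.2% and 63.5% in OLFM4-wild, OLFM4-knockout and the library labelled OLFM4-active. KRT1 held 20.2%, 2.55% and 10.4%, KRT4 12.2%, 33.4% and 12.6%, and KRT13 11.1%, 19.9% and 11.7%. KRT4 and KRT13 kept nearly the same shares in OLFM4-wild and in the library labelled OLFM4-active, while the share of KRT1 differed in all 3.

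The members were also read beside their neighbours in the 2 clusters, where 17 of 27 keratin genes on chromosome 12 and 10 of 28 on chromosome 17 had a mean level of 1 CPM or more. On chromosome 12, 8 of the 17 were more than 2-fold higher and 1 lower in OLFM4-knockout than in OLFM4-wild, and in the library labelled OLFM4-active 1 was higher and 7 lower. On chromosome 17 the numbers were 5 and 1, and 0 and 1. With totals they were 4 and 3, and 1 and 8, on chromosome 12, and 2 and 2, and 0 and 1, on chromosome 17. Among all 16600 genes with TMM, 5.77% were more than 2-fold higher and 7.56% lower in OLFM4-knockout than in OLFM4-wild. In the library labelled OLFM4-active 3.78% were higher and 6.73% lower by more than 2-fold. Of the 17 measured genes on chromosome 12, only KRT1 was lower in OLFM4-knockout by that much, joined by KRT2 and KRT80 with totals. Of the 10 measured on chromosome 17, only KRT23 was, joined by KRT9 with totals.

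The genes on either side of KRT1 and KRT4 show how the level of neighbours differed. KRT76, a keratin of the hard palate and gingiva that lies between KRT1 and KRT4, had 20, 863 and 5 counts, log2 fold changes of 3.90 (3.30 to 4.65) in OLFM4-knockout and -2.29 (-4.16 to -0.94) in the library labelled OLFM4-active. KRT3, the keratin of cornea next to KRT4, had 19, 137 and 26 counts and 1.32 and 0.05. KRT79, between KRT4 and KRT78, had 33, 131 and 7 counts and 0.47 and -2.55. On the other side of KRT1, KRT2, the keratin of the upper epidermis, had 181, 272 and 38 counts and -0.91 and -2.63. Next to KRT1 on the side of KRT76, KRT77 had 14, 3 and 0 counts, below 1 CPM, with an interval of -6.16 to -1.88 in OLFM4-knockout. Both genes beside KRT1 were thus lower in OLFM4-knockout, as KRT1 was, and the 3 that follow toward KRT78, other than KRT4, were at 3.90, 1.32 and 0.47. The interval of KRT79, -0.07 to 1.09, includes 0, so its direction is not established. With totals KRT79 was at 0.12 and KRT3 at 0.97.

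Another 2 keratin genes near the members were named after their values were seen. KRT71, a keratin of the hair follicle sheath, had 10, 257 and 36 counts, with log2 fold changes of 3.12 and 1.40. KRT36, a hair keratin in the chromosome 17 cluster, had 0 counts in OLFM4-wild, 300 (5.84 CPM) in OLFM4-knockout and 0 in the library labelled OLFM4-active. The lower limit of its log2 fold change in OLFM4-knockout against OLFM4-wild was 4.84.

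**Figure D4:**
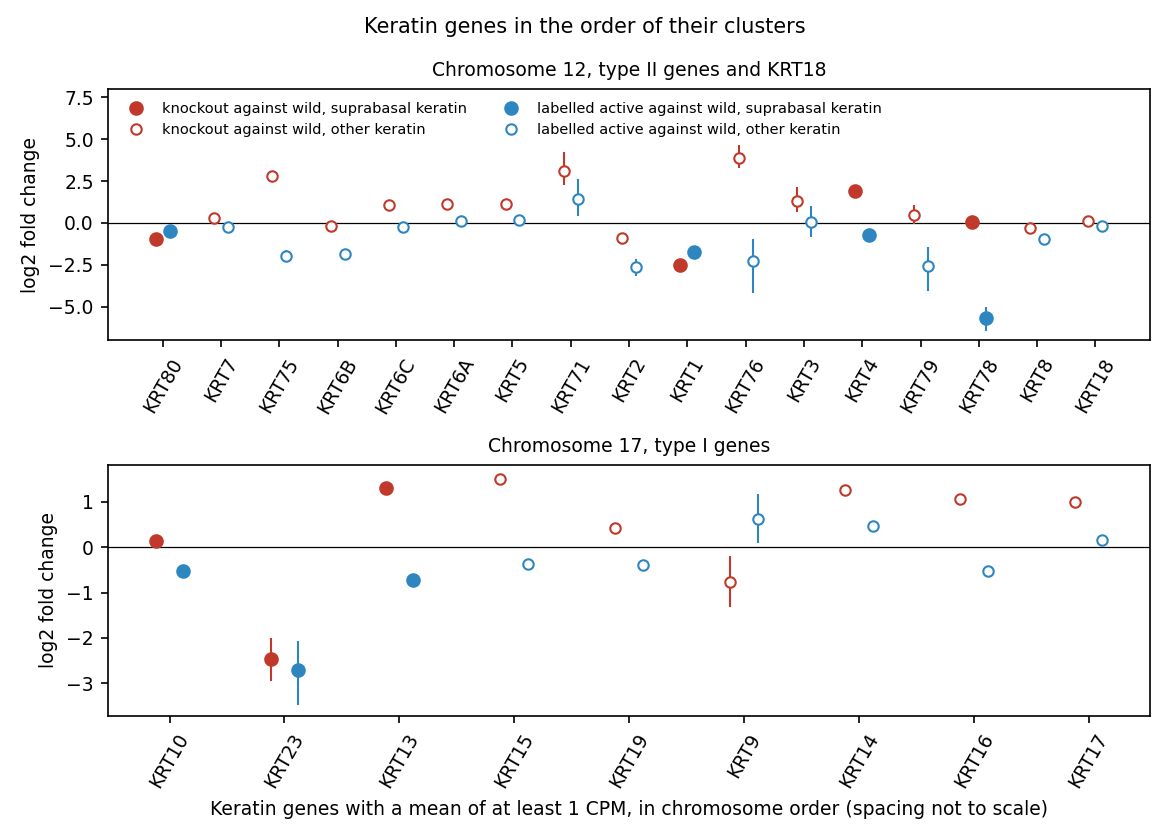
Log2 fold change against OLFM4-wild (y axis) of the keratin genes with a mean level of 1 CPM or more in their order along chromosomes 12 and 17 (x axis, not to scale), with the members filled, the other keratins open, and 95% counting intervals as lines. KRT36, with 0 counts in 2 libraries, is left out. KRT1 at -2.53 and KRT4 at 1.92 lie close together on chromosome 12 with opposite signs in OLFM4-knockout.

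The other keratin classes stand beside 5.77% of all 16600 genes more than 2-fold higher and 7.56% lower in OLFM4-knockout than in OLFM4-wild. For the library labelled OLFM4-active these shares were 3.78% and 6.73%. All 3 basal keratins were more than 2-fold higher in OLFM4-knockout than in OLFM4-wild, KRT5 at 1.15, KRT14 at 1.27 and KRT15 at 1.504. In the library labelled OLFM4-active 0 of 3 were beyond 2-fold, with 0.16, 0.47 and -0.38. Of the 6 activation keratins, 4 were higher in OLFM4-knockout (KRT6A at 1.12, KRT6C at 1.07, KRT16 at 1.06 and KRT75 at 2.83), while KRT17 at 0.999 and KRT6B at -0.18 were not beyond 2-fold, and 2 were lower in the library labelled OLFM4-active (KRT6B at -1.86 and KRT75 at -1.95). The other 4 there were KRT6A at 0.10, KRT6C at -0.25, KRT16 at -0.52 and KRT17 at 0.15. Of the simple epithelial keratins, 4 of 5 were measured and 0 were beyond 2-fold in either comparison, KRT7 at 0.28 and -0.21, KRT8 at -0.29 and -0.95, KRT18 at 0.11 and -0.17, and KRT19 at 0.42 and -0.38. Of the 7 other differentiation keratins 5 were measured. In OLFM4-knockout 2 of these (KRT3 and KRT76) were higher, and in the library labelled OLFM4-active 3 (KRT2, KRT76 and KRT79) were lower. KRT9 had -0.77 and 0.61, and KRT12, KRT20 and KRT77 were below 1 CPM. With totals, 1 of 3 basal keratins (KRT15 at 1.15) and 1 of 6 activation keratins (KRT75 at 2.48) were more than 2-fold higher in OLFM4-knockout. KRT5 at 0.79, KRT14 at 0.92, KRT6A at 0.77, KRT6C at 0.72, KRT16 at 0.70 and KRT3 at 0.97 kept their sign there. These 6 were no longer beyond 2-fold, and KRT7 at -0.07 and KRT18 at -0.24 changed sign. In the library labelled OLFM4-active KRT8 at -1.06 was lower by more than 2-fold with totals, and KRT6A at -0.01 and KRT3 at -0.07 changed sign. KRT4 and KRT13 thus had the same sign in OLFM4-knockout as the basal and most of the activation keratins, and KRT1 the opposite one.

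The remaining genes of the suprabasal programme were read from lists of context genes. Among all 16600 genes, 5.77% were more than 2-fold higher and 7.56% lower in OLFM4-knockout than in OLFM4-wild, with a median of 0.10. In the library labelled OLFM4-active relative to OLFM4-wild these values were 3.78%, 6.73% and 0.05. In OLFM4-knockout relative to the library labelled OLFM4-active they were 2.95%, 3.39% and 0.08. Of the 19 measured genes of the spinous and granular layers, which make desmosomes and the cornified envelope, 8 were more than 2-fold lower in OLFM4-knockout than in OLFM4-wild (CASP14, SPINK5, DSC1, FLG, CALML5, KRTDAP, SBSN and CDSN) and 1 was higher (TGM1), with a median of -0.88. With totals 10 were lower and 0 higher, TGM1 being at 0.68. In the library labelled OLFM4-active 10 were lower and 0 higher, with a median of -1.17. The 2 most abundant, the desmosomal genes DSP and PKP1, had -0.22 and 0.35 (-0.01 with totals for PKP1) in OLFM4-knockout and -0.30 and -0.08 in the library labelled OLFM4-active. KRT1, at -2.53 and -1.75, had the sign of the genes that were lower, and KRT10, its partner, had 0.13 in OLFM4-knockout, or -0.22 with totals. Between OLFM4-knockout and the library labelled OLFM4-active 3 of the 19 were higher and 0 lower, with a median of 0.08, or 2 and 0 with a median of -0.16 with totals. LORICRIN was below 1 CPM.

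The mucosal suprabasal genes other than keratins did not follow KRT4 and KRT13. Of 15 measured, 11 were more than 2-fold lower in OLFM4-knockout than in OLFM4-wild and 2 higher (EMP1 and CALML3), with a median of -1.67, or 11 and 0 with totals, and in the library labelled OLFM4-active 10 were lower and 1 higher (EMP1), with a median of -2.00. The 2 most abundant were S100A9, a subunit of calprotectin, at -2.04 and -2.83, and EMP1, a membrane protein of mucosal epithelium, at 1.31 (0.96 with totals) and 1.51. SPRR3, a cornified envelope precursor of mucosa, had 97 counts in OLFM4-wild, 3 in OLFM4-knockout and 1 in the library labelled OLFM4-active. Between OLFM4-knockout and the library labelled OLFM4-active 3 of the 15 were higher and 1 lower, with a median of 0.21, or 2 and 1 with a median of -0.03 with totals, whereas KRT4 and KRT13 were 6.32-fold and 4.04-fold higher. CRNN, among the higher ones with either scaling, had only 3 counts against 0, with a lower limit of -2.38. It passed the level of 1 CPM through its 93 counts in OLFM4-wild. CLCA4, MUC4, CRCT1, MAL and MUC21 were below 1 CPM.

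Of 33 measured regulators of epithelial differentiation, 2 were more than 2-fold higher in OLFM4-knockout than in OLFM4-wild, beside 5.77% of all genes. These were FOSL1 at 1.96 and CEBPA at 1.28, or 0.93 with totals. Another 7 were lower, beside 7.56% of all genes, among them PRDM1, FOSL2, GATA3, EHF, ELF3 and MAF. The median of the 33 was -0.13. With totals 1 was higher and 9 lower, with a median of -0.49. In the library labelled OLFM4-active 3 were higher (SOX9, JUND and FOSL1) and 7 lower, among them PRDM1, DLX3, GATA3, EHF, ELF3 and MAF, with a median of -0.33. With totals 2 were higher there and 7 lower, JUND going from 1.09 to 0.98. MAF, a transcription factor of late epidermal differentiation, is given with values outside the rule for list genes. It had -1.15 in OLFM4-knockout and -1.97 in the library labelled OLFM4-active. KRT1 was lower in both libraries too, so any regulator named as lower shares its sign by that choice. A link of MAF to KRT1 was not tested. The 2 most abundant of the 33 regulators were KLF5, at 0.82 and 0.63, and TP63, a factor that defines basal cells, at 0.19 (-0.16 with totals) and 0.12. Between OLFM4-knockout and the library labelled OLFM4-active 1 of 33 was higher (JUNB) and 2 lower (SOX9 and TFAP2A), with a median of 0.22. With totals 0 were higher and 3 lower (SOX9, TFAP2A and FOSL1), with a median of -0.01. SOX2 was below 1 CPM.

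The hillock genes that the study names with KRT13 are KRT19, LYPD3 and APOBEC3A, and this list was chosen by the study. KRT13 was the 1 gene of the list beyond 2-fold in OLFM4-knockout against OLFM4-wild, beside 5.77% of all genes higher and 7.56% lower. With totals 0 were. KRT19 had 0.42 and LYPD3 0.05 (-0.30 with totals) there, and APOBEC3A had 6, 12 and 10 counts, below 1 CPM. Of the 3 measured genes, 0 were beyond 2-fold in the library labelled OLFM4-active, with a median of -0.41, beside 3.78% of all genes higher and 6.73% lower. In OLFM4-knockout relative to the library labelled OLFM4-active the 1 gene beyond 2-fold was again KRT13, and the median was 0.80. Of all genes, 2.95% were higher and 3.39% lower there by more than 2-fold.

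For each member with a mean level of 10 CPM or more, the 3 genes nearest in their pair of log2 fold changes against OLFM4-wild were taken from 10596 genes at that level, as a description over 3 libraries that share 1 reference. KRT1 had 1 gene within a distance of 0.1, CLDN1, a tight junction claudin, at 0.016, followed by MXRA5 at 0.153 and PXDN at 0.228. CLDN1 had 2461, 1191 and 960 counts. The nearest to KRT13 were ENSG00000229732, the lncRNA that overlaps it, at 0.0720, a processed pseudogene on another chromosome, ENSG00000232176, at 0.0897, and KRT16 at 0.312. The nearest to KRT4 were the same pseudogene at 0.538, KRT15 at 0.549 and KRT13 at 0.615, so 2 of 3 were keratins and each was farther away. Which transcripts the pseudogene's reads come from was not tested.

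For KRT10 the nearest were SMTN at 0.0130, DPM2 at 0.0167 and ERP29 at 0.0179, and 57 genes lay within 0.1, so its pattern is a common one. For KRT80 they were RNF217 at 0.0239, STARD9 at 0.0550 and SOS1 at 0.0592, with 18 genes within 0.1. For KRT78 no gene came close, with GPR15LG at 3.11, H4C6 at 3.13 and TXNIP at 3.22. Each of the other 5 members compared had a gene within 0.538.

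Markers of cell types were checked beside these values. All 5 basal epithelial markers (KRT5, KRT14, TP63, ITGA6 and ITGB4) were present. Their summed level was 18624, 40787 and 22630 CPM in OLFM4-wild, OLFM4-knockout and the library labelled OLFM4-active. Of the 5, KRT5 and KRT14 were more than 2-fold higher in OLFM4-knockout than in OLFM4-wild, beside 5.77% of all genes, or 0 of 5 with totals. The 7 luminal markers summed to 470, 429 and 310 CPM, mostly KRT8 and KRT18, with KLK3 and TMPRSS2, luminal genes of the prostate, below 1 CPM. The 4 club cell markers summed to 0, 0.0390 and 0.0419 CPM, with SCGB1A1, SCGB3A1 and LTF at 0 in all 3 libraries. The 3 neuroendocrine markers summed to 0.715, 0.721 and 0.963 CPM, the 6 fibroblast and smooth muscle markers to 57.9, 43.5 and 35.7 CPM with LUM at 0 in all 3, and the 4 leukocyte and endothelial markers to 32.0, 24.6 and 19.9 CPM, mostly CD68. The part of the basal markers in the values of the 8 genes was not tested. In bulk RNA, fewer cells of a type and less RNA per cell cannot be told apart, so the levels do not say how many cells expressed a keratin.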

How the data were processed

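The authors trimmed the read pairs with cutadapt, aligned them with HISAT2 to GRCh38 and, with featureCounts, counted uniquely mapped, reversely stranded pairs per gene. They deposited 1 table of raw whole-number counts for 3 libraries, made with a stranded total RNA kit with ribosomal depletion. Groups came from the labels. Library sizes were scaled with TMM (edgeR 4.0.16, R 4.3.3), and log2 CPM followed limma-voom (limma 3.58.1) with an offset of 0.5 counts. Intervals are conditional Clopper-Pearson intervals at 95% (Python 3.11.15, scipy 1.17.1), and the floor of 3 counts is 0.165, 0.0584 and 0.126 CPM. Counts of genes use a mean level of 1 CPM or more and a fold change of 2. Positions, exon lengths and overlaps come from GENCODE version 44. Keratin classes, context lists, cell type markers and likeness follow 1 rule: all members, all keratins of the named classes, the counts and the 2 most abundant genes of each list, and the 3 nearest genes of each member. Other list genes are named by direction, and some of them, such as MAF and SPRR3, are given with values outside this rule. Some single genes of the lists are not reported here. The 8 genes and the lists were chosen with earlier results of these data known. Scripts were tested on simulated data. Alternatives were library totals, DESeq2 1.42.0 size factors, upper quartile factors, other offsets, filters and thresholds, thinning, and other scales of ratios and shares.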

Additional observations from a re-analysis of the deposited data

How the results depend on the processing

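Of 21 log2 fold changes of the 7 measured members, 19 kept their sign under the 7 alternatives of scaling, offset and depth. KRT10 in OLFM4-knockout against OLFM4-wild changed sign with library totals (-0.22), and KRT78 there did so with totals (-0.33), upper quartile factors and thinned libraries. With totals, 1 member (KRT4) was more than 2-fold higher in OLFM4-knockout than in OLFM4-wild, and 1 (KRT1) was lower than in the library labelled OLFM4-active. At 4-fold, 0 members were higher in OLFM4-knockout than in OLFM4-wild. Per kilobase of exon there were 33.1, 5.24 and 14.2 of KRT1 per 100 of KRT10, and the 8 genes held 9.77%, 6.18% and 5.41% of keratins in OLFM4-wild, OLFM4-knockout and the library labelled OLFM4-active. Without keratins that have near-identical copies the shares were 15.1%, 10.1% and 8.55%. Genes higher and lower in OLFM4-knockout than in OLFM4-wild numbered 362 and 2350 with totals, 3338 and 7970 with a filter of 1 count, 1864 and 3420 with 10 counts, 110 and 239 at 4-fold, and 459 and 657 with the whole interval beyond 2-fold. For the library labelled OLFM4-active relative to OLFM4-wild, the last 4 settings gave 4707 and 7134, 1452 and 2679, 84 and 255, and 246 and 530. For OLFM4-knockout relative to the library labelled OLFM4-active, the 5 settings gave 215 and 1160, 4017 and 5901, 1586 and 2057, 43 and 29, and 140 and 203. The cause of these differences was not tested, beyond the number of genes each filter admits. No paired analysis was possible because each condition has 1 library and the labels carry no replicate number. Depth limits KRT78, KRT23 and KRT24 in the library labelled OLFM4-active, with 18, 22 and 0 counts there.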
